A study of Mus musculus with 27 samples.

Results

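The cytosolic ribosomal proteins are the protein parts of the ribosome that translates the messages of the nucleus. Their genes were taken from the array annotation by symbol: Rpl or Rps followed by a number, or Rpsa, Rplp0, Rplp1 or Rplp2, without the Rps6k kinases, the pseudogenes and the names with an l after the number. On probe sets that carry a single gene symbol this rule found 44 of 18193 genes, each read by its brightest probe set. Of these, 43 encode ribosomal proteins; the 44th, Rps19bp1, encodes a nucleolar protein that binds Rps19 and is no part of the ribosome. A further 30 genes with such names, Rpl5 among them, lie only on probe sets annotated to several genes and were not read.

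The cells came from livers of mouse embryos at day E14.5 and were kept in a serum-rich medium for 0, 24 or 48 h before total RNA was hybridized to 27 Affymetrix arrays of the whole mouse genome. There were 4 genotypes and no other treatment: wild type (WT, with 3, 2 and 2 arrays at 0, 24 and 48 h), knockout of p107, whose gene is Rbl1 (p107 KO; 2, 2 and 1 arrays), knockout of Rb1 (Rb1 KO; 5, 4 and 2 arrays) and knockout of both (Rb1;p107 DKO, here DKO; 2, 1 and 1 arrays). The strain and the altered part of each gene are not given in the sources used here. Nor do the labels say if replicate arrays stand for different embryos, and a p-value here then speaks of the spread among these arrays alone, which may be technical. The comparisons ask how culture and the loss of pocket proteins, the family of Rb1 and p107, go with the level of each message.

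A ribosome has a small subunit, built on the 18S RNA, which reads the message, and a large subunit, which joins the amino acids; proteins named Rps belong to the small and those named Rpl to the large subunit. Ribosomal protein messages are among the most abundant of a cell, and many begin with a terminal oligopyrimidine tract, or TOP: a C at the first base followed by more C and T bases, through which the mTORC1 pathway controls their translation. Fetal liver is the site where red cells are made before birth, and loss of 1 copy of Rps19 or of several other ribosomal protein genes causes Diamond-Blackfan anaemia, a failure of red cell production. Pocket proteins restrain E2F factors and, in some settings, the synthesis of ribosomal RNA.

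The starts of the members' genes are shown because the TOP tract and the nearby ETS motif are the sequence features that this family is best known for. Windows of 300 bases, from 250 before to 50 after the start listed in RefSeq on GRCm38.p6, were found for 39 members, 45 windows in all. A C at the listed start followed by at least 4 further C or T bases stood in 8 of the 45 windows (17.8%), against 2.51% of all 32851 windows. Within 5 bases of the listed start it stood in 19 of the 45 (42.2%), against 18.3% of all. The 5 starts below belong to Rps18, Rps10, Rps6 and Rps27 of the small and Rpl35 of the large subunit, and the capitals mark the run of C and T bases that begins at the listed start. Each line gives 10 bases before the start and 20 from it on.
Rps18 (chr17:33955646-33955675, minus strand): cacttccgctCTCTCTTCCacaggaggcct
Rps10 (chr17:27635225-27635254, minus strand): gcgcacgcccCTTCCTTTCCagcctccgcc
Rps6 (chr4:86857348-86857377, minus strand): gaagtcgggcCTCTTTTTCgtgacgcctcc
Rps27 (chr3:90213629-90213658, minus strand): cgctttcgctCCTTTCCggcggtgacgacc
Rpl35 (chr2:39005112-39005141, minus strand): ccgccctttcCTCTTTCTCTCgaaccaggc

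The listed starts of Rps19 and Rpl12, the 2 members that the later results turn on most, have no such tract at that base and are shown in the same frame; Rpl12 has one within 5 bases of it and Rps19 does not. Listed starts can differ from the starts a cell uses by a few bases.
Rps19 (chr7:24884582-24884611, plus strand): aatctcgcgagactcgacgcccgacttgtg
Rpl12 (chr2:32961702-32961731, plus strand): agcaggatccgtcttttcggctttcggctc

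The ETS motif, searched as CCGGAAG on both strands anywhere in the window, was present in 19 of the 45 windows (42.2%), against 8.86% of all windows. It is shown in capitals for 2 large-subunit members, Rpl11 and Rpl6, and for Rps25 of the small subunit.
Rpl11 (chr4:136053369-136053398, minus strand): aggccacggggCCGGAAGtctccctctctc
Rpl6 (chr5:121204502-121204531, plus strand): ttgcttatagaCCGGAAGccgctgccttag
Rps25 (chr9:44407630-44407659, plus strand): cacccattgccCCGGAAGtactctctcgag

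E2F sites, searched on both strands as TTTCCCGC, TTTGGCGC, TTTCGCGC and TTTGCCGC, were present in 2 member windows, those of Rps3a1 and Rpsa (4.44% of the 45, against 2.26% of all windows). They are shown because E2F factors are the main partners of the pocket proteins; the Rps3a1 line has the motif in reverse. Among the other motifs searched on both strands, the SP1 letters GGGCGG stood in 55.6% of member windows and 35.7% of all, the E-box CACGTG in 11.1% and 7.15%, TATAAA in 11.1% and 13.6%, and the YY1 letters AAGATGGC in 6.67% and 2.75%. No motif searched contains another. Such matches describe letters in a window and not the binding of a factor.
Rps3a1 (chr3:86142701-86142730, minus strand): gtcgcagcacgGCGGGAAAcgagccgccag
Rpsa (chr9:120127778-120127807, plus strand): gccgcccgtccTTTCGCGCtacccggggac

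Facts of the whole data set bear on all values below. The deposited MAS5 signals were scaled by the authors so that the mean over each array's probe sets, with 2% trimmed from each end, lay between 492 and 498, while the array medians ran from 81.0 to 119.3. Rbl1 read at 84.5 to 117 in the 4 arrays at 0 h labelled as lacking p107 and at 1518 to 3502 in the other 8, and Rb1 at 1377 to 2825 in the 7 labelled as lacking Rb1 against 6144 to 7105 in the other 5; at 48 h the Rb1 ranges overlapped. Of the 27 arrays, 4 stood apart: replicate 5 of Rb1 KO at 0 h and replicate 1 of Rb1 KO, p107 KO and DKO at 24 h. On those 3 arrays at 24 h the brightest probe set read 125649 to 154046, against at most 90606 elsewhere, so the member counts that use them are also given without them. Y-linked signal was seen in 0 of 7 WT, 2 of 5 p107 KO, 3 of 11 Rb1 KO and 4 of 4 DKO arrays.

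The ribosomal protein messages gave some of the brightest signals on the arrays. Of the 44 members, 34 had a mean signal above 10000, a limit set after seeing the data, and 23 to 31 members were among the 100 brightest genes of each array. The brightest was Rps29, a small-subunit protein that holds zinc, with a mean of 62118 over the 27 arrays and the highest rank of all genes. The dimmest of the 34 was Rpl11, a large-subunit protein that also binds MDM2, at 13922. Levels of different genes come from different probes and lengths, so their order does not rank the amounts of the messages. The 34 bright members divide equally into 17 proteins of each subunit.

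The other 10 members were dim: Rps16 at 14.7, Rps27 at 233, Rpl37 at 495, Rpl39 at 615, Rps6 at 706, Rpl14 at 717, Rps25 at 807, Rps19bp1 at 888, Rpl12 at 971 and Rpl27a at 1274. All of these but Rps19bp1 are ribosomal proteins needed in equal number in each ribosome. Each of them also lies on probe sets shared with other genes, which were not used for it. There are 9 such probe sets for Rps6, 5 for Rpl14, 3 for Rpl37 and 2 each for Rps16 and Rpl12. Rpl39, Rps25, Rps27 and Rpl27a have 1 each. The dim values are those of the genes' own probe sets alone. Rps16, read at 1.7 to 112, was the only member under the filter on low values; the other 43 were tested, among 10916 genes in all. The filter removed the 40% of genes with the lowest mean over all arrays.

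The mean log2 level of the 34 bright members was higher at 24 h than at 0 h in every genotype on the deposited scale, a rise that was not seen after quantile normalization. In WT it was 14.60, 14.60 and 14.80 at 0 h, 15.27 and 15.47 at 24 h, and 14.94 and 15.15 at 48 h. The 24 h arrays lay above all the others. Rb1 KO arrays were at 14.65, 14.77, 14.85, 14.56 and 14.56 at 0 h, at 15.62, 14.98, 15.20 and 14.99 at 24 h, and at 14.82 and 14.79 at 48 h. In that genotype the 24 h arrays again lay above every array of 0 and 48 h, and the highest of them was the replicate 1 that stood apart. The p107 KO arrays were at 14.60 and 14.84, then 15.90 and 14.98, then 14.88, and the DKO arrays at 14.73 and 14.82, then 15.72, then 14.60. After quantile normalization, which gives every array the same set of values and so leaves genes at the top of the range little room to move together, all 27 arrays lay between 14.80 and 15.16. On that scale WT was at 15.05, 15.07 and 15.06 at 0 h, at 15.04 and 15.11 at 24 h, and at 14.90 and 14.94 at 48 h. The 0 and 24 h arrays overlap there, and the 48 h arrays lie below them.

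**Figure D1:**
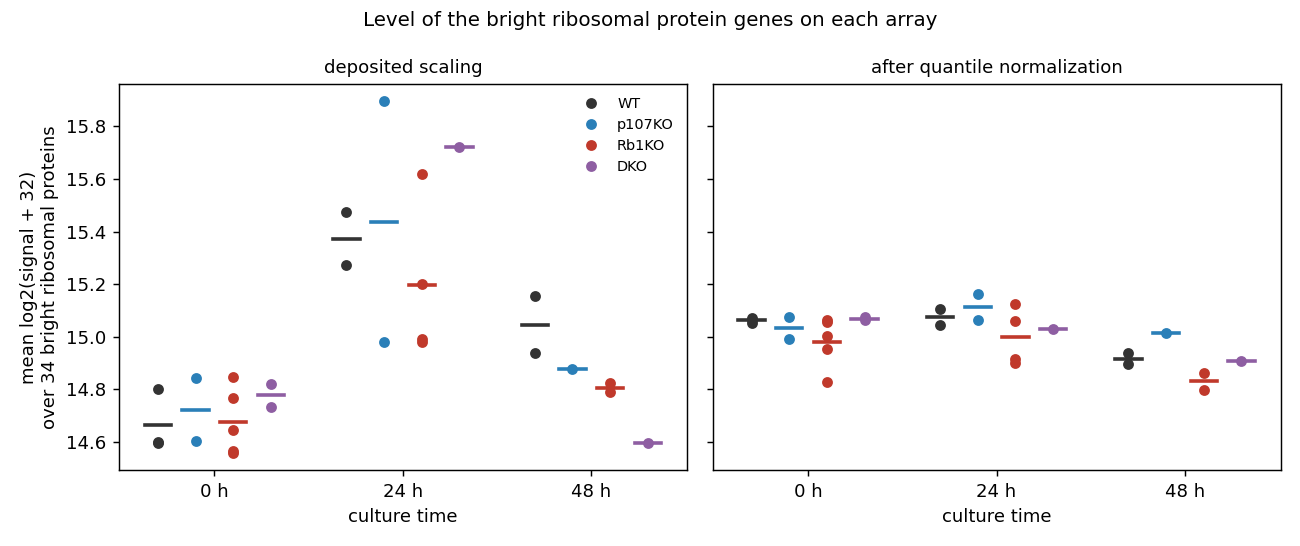
Mean log2 signal of the 34 bright ribosomal protein genes on each of the 27 arrays (points), by genotype and hours in culture, with lines at the group means; the left panel has the deposited scale and the right panel quantile-normalized values. On the deposited scale the WT arrays rise from 14.60 to 14.80 at 0 h to 15.27 and 15.47 at 24 h, and after quantile normalization all arrays lie between 14.80 and 15.16.

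The first 24 h of culture were tested next. In WT cells, on the deposited scale, 28 members were higher and 2 lower at 24 h than at 0 h, and with quantile normalization only 1 was higher and 2 lower (limma, adjusted p under 0.05 over all genes tested). Across all 10916 genes 36.9% were called, 15% as higher and 21.9% as lower, so the members' 28 of 43 stands above the background for rises on that scale. The median change of the 43 members was 0.71 on the log2 scale, against -0.08 over all genes. The 300 brightest other genes, a set chosen after seeing the data, moved nearly as far: their median was 0.57, with 172 higher and 13 lower. With quantile normalization, where 34.1% of all genes were called, the members' median was 0.03, as were that of all genes and that of the 300 brightest others. With each array centred on its median instead, 34 members were higher, 1 was lower and the members' median was 0.89 against 0.08 over all genes (31.2% called).

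Among small-subunit genes the clearest rise in WT was that of Rps19, the gene most often mutated in Diamond-Blackfan anaemia. It read 15811, 16321 and 17297 at 0 h, 26847 and 31561 at 24 h, and 22619 and 26898 at 48 h. The 2 arrays at 24 h lay above the 3 at 0 h with no overlap. The difference between 24 and 0 h was 0.82 ± 0.19 (SE) on the log2 scale, 1.77-fold, with an adjusted p of 0.00186. After quantile normalization it was 0.28 with an adjusted p of 0.0898.

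Rps18, whose protein sits on the head of the small subunit, read 27305, 25318 and 30548 at 0 h and 47065 and 55958 at 24 h, again without overlap. It was 1.86-fold higher (0.89 ± 0.22 on the log2 scale, adjusted p 0.00242), but the mean over all its probe sets gave -0.19. Rpsa, also known as the laminin receptor precursor, read 29595, 29900.4 and 35541 at 0 h and 54852 and 60478 at 24 h, a log2 difference of 0.87 with an adjusted p of 0.00538. Rps6 is the small-subunit protein phosphorylated by S6 kinase downstream of mTORC1. At its own dim probe set, with 9 shared ones not used, it read 654, 558 and 465 at 0 h. It read 866 and 872 at 24 h, and 661 and 673 at 48 h. Its rise of 0.62 ± 0.17 at 24 h (adjusted p 0.00527) was the only one that also passed with quantile normalization, at 0.82 with an adjusted p of 0.000722. In all, 15 of the 17 bright small-subunit members were higher, with a median of 0.81 on the deposited scale.

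Of the 17 bright large-subunit members 12 were higher, with a median of 0.69. Rpl4, which reaches into the peptide exit tunnel, read 27636, 26461 and 32273 at 0 h and 45478 and 53455 at 24 h. Its arrays did not overlap, and it was 1.72-fold higher (0.78 ± 0.20 on the log2 scale, adjusted p 0.00345). Rpl7a, Rpl6 and Rpl8, other large-subunit proteins, followed with 0.78, 0.73 and 0.69. Rpl11, of the central protuberance, did not pass: it read 11879.7, 13513 and 13331 at 0 h, 14482 and 18755 at 24 h, and 10369 and 13365 at 48 h. Its difference of 0.35 ± 0.21 had an adjusted p of 0.207. Rplp0, the base of the stalk that recruits elongation factors, read 32720.0, 31286 and 29819.6 at 0 h and 58275 and 52640.1 at 24 h. These do not overlap either, yet the log2 difference of 0.82 had an adjusted p of 0.0632. The error in this test is drawn from all groups, and the Rb1 KO arrays of Rplp0 at 24 h ran from 38436 to 99922.

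The other members called higher in WT on the deposited scale lay within a narrow band. In the small subunit Rps3, Rps4x, Rps7, Rps15, Rps10, Rps3a1, Rps28, Rps2, Rps14 and Rps26 ran from 0.71 to 0.87, and Rps9 was at 0.53. In the large subunit Rpl27, Rpl10a, Rpl19, Rpl13a, Rpl22, Rpl38, Rpl7 and Rpl35 ran from 0.58 to 0.86. Rps14, whose gene is lost in a form of myelodysplasia with anaemia, read 29043, 27399.6 and 35343 at 0 h and 51745 and 59471 at 24 h in WT. The later arrays lay above the earlier ones, and the difference was 0.87.

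The test did not pass for 13 members in WT at 24 h. Apart from Rpl11, Rplp0 and Rpl41, these were Rps29 (0.70, adjusted p 0.0816), Rps20 (0.68, adjusted p 0.0534), Rpl37a (0.63, adjusted p 0.0629), Rplp2, an acidic protein of the stalk (0.59, adjusted p 0.0571), and 6 dim members. Rps29 read 41050.4, 43144 and 48147 at 0 h, 66919 and 76056 at 24 h, and 59782 and 64872 at 48 h, so its arrays in culture were above those of 0 h. Among the dim ones Rpl27a read 836, 612 and 866 at 0 h and 1623 and 2097 at 24 h (1.24, adjusted p 0.0704). Rpl37 went the other way, from 589.5, 737 and 560.4 to 203 and 456 (-0.95, adjusted p 0.0544), and Rps19bp1 was at -0.43. Rpl39, Rpl14 and Rps27 were at 0.15, -0.06 and -0.06. For Rps27 the WT arrays were at 129, 251 and 134 at 0 h and 229 and 104 at 24 h, which overlap.

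All 30 members called in WT had 0 h and 24 h arrays that did not overlap. The calls come from these same values, so this is no further evidence for them. The share of all genes without overlap was not counted. The call count rested strongly on 1 array: without WT replicate 2 at 24 h, the higher of that pair, 5 members were called in place of 30. Without the 4 arrays that stood apart, none of them WT, 34 members were higher and 4 lower (44.7% of all genes called).

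**Figure D2:**
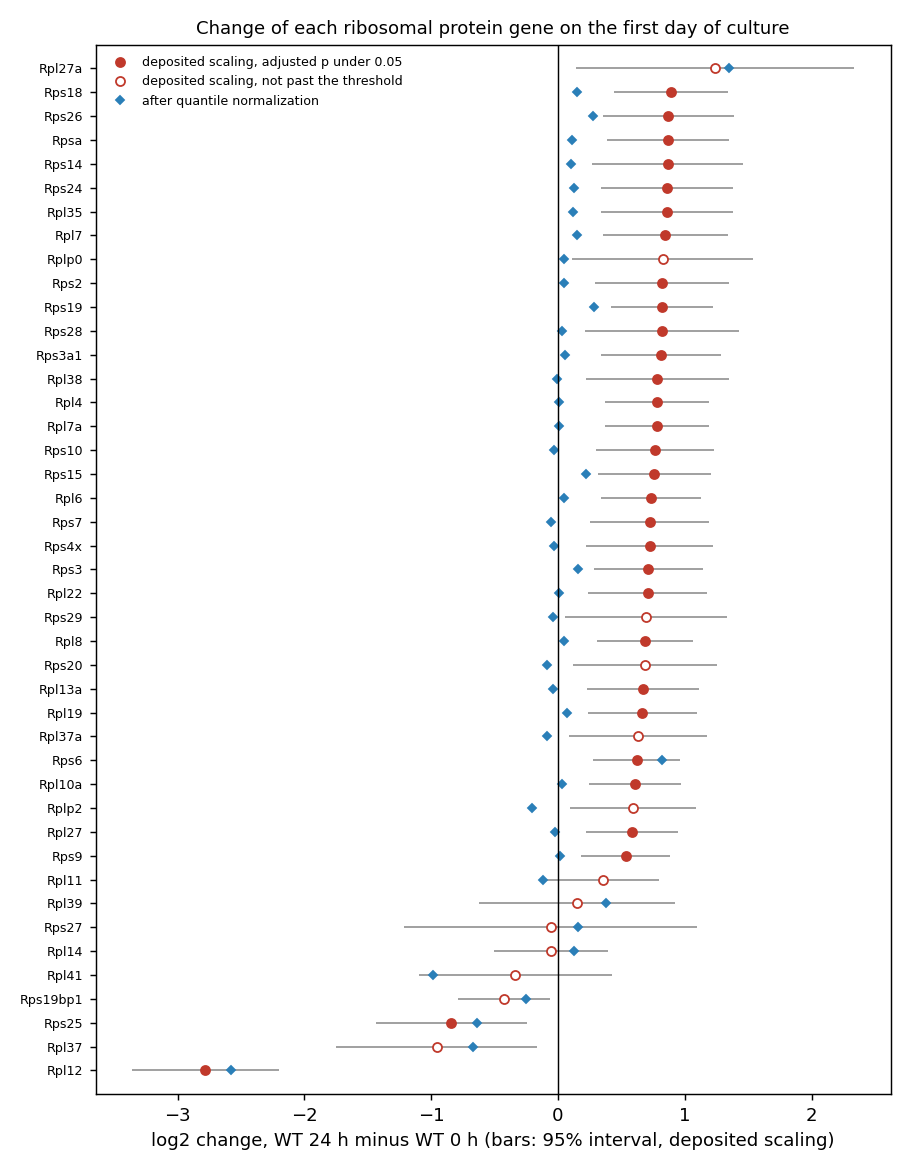
Change from 0 to 24 h in WT for the 43 tested ribosomal protein genes, in log2 units on the deposited scale, with 95% confidence intervals; filled points have an adjusted p under 0.05, open points do not, and blue diamonds show the same change after quantile normalization. On the deposited scale 28 genes are called higher and 2 lower, while after quantile normalization 1 is called higher and 2 lower.

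Markers of red cell precursors and of other cell types changed level over the same 24 h. All 8 hepatocyte markers tested were lower in WT at 24 h, with a median log2 change of -6.55, and so were 6 of 6 stroma and 4 of 5 endothelial markers. The mean log2 signal of the hepatocyte list was 14.12 to 14.69 over the 12 arrays at 0 h and 8.15 to 10.29 over the 9 at 24 h. The erythroid list was at 12.73 to 13.21 and then 13.12 to 14.08, with 4 of its 5 tested genes higher on the deposited scale and 2 with quantile normalization. The neutrophil list was at 12.43 to 13.59 and then 13.14 to 14.70, and the macrophage list at 10.48 to 11.27 and then 8.60 to 9.90. In bulk RNA, fewer cells of a type and less RNA per cell cannot be told apart. The part of this change of cell types in the members' values was not tested.

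A few members went against the others. Rpl12, a large-subunit protein at the base of the stalk, fell in every genotype at the dim probe set used for it. It read 1924, 2292 and 1980.1 in WT at 0 h, 254 and 291 at 24 h, and 165 and 84.2 at 48 h. The groups were far apart, and the change to 24 h was -2.78 ± 0.28 on the log2 scale, 6.88-fold lower, with an adjusted p of 5.60e-08. Rps25, a small-subunit protein near the exit site, read 953, 1085 and 875 at 0 h and 490.1 and 563 at 24 h in WT. It was 1.79-fold lower (-0.84 ± 0.29 on the log2 scale, adjusted p 0.0246).

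Rpl41, the smallest ribosomal protein, had the lowest change among the bright members. It read 24748, 25672 and 28468 at 0 h, 19413 and 22292 at 24 h, and 10945 and 21286 at 48 h in WT. All later arrays lay below those of 0 h, but the change to 24 h of -0.34 ± 0.37 did not pass on the deposited scale (adjusted p 0.511). It passed with quantile normalization (-0.98, adjusted p 0.0494). When each array was scaled to the mean of the 34 bright members, an alternative chosen after seeing the data, 6 members were called in WT and all 6 were lower, where 51.1% of all genes were called and 48.1% as lower: Rpl12, Rpl37, Rps25, Rps19bp1, Rpl41 and Rpl14, at -3.49, -1.66, -1.55, -1.13, -1.04 and -0.76. In that list Rpl41 is the only bright member. On that scale no member was called higher, and 5 of the 6 called lower are dim. The scaling sets the mean of the bright members alike on all arrays, so a member that rose less than they did reads as lower. Rpl41, for one, was at -0.34 on the deposited scale. These calls place members relative to the bright ones and are no separate evidence for a fall in signal.

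Dim probe sets also fell where a bright probe set of the same gene rose. The 44 members have 96 probe sets of their own, and these were fitted one by one among 27022 probe sets, in a fit also chosen after seeing the data. In WT from 0 to 24 h, 27.5% of all probe sets were called, 10.3% as higher and 17.2% as lower. Of 62 bright member probe sets 46 were higher and 0 lower, while of 28 dim ones 2 were higher and 11 lower. The probe sets shared among several genes gave 59 higher and 0 lower of 75 bright and 0 higher and 7 lower of 32 dim. Of 18 members with several probe sets of their own tested, 7 were called in opposite directions in WT: Rpl22, Rpl35, Rps10, Rps18, Rps24, Rps3 and Rps9. In Rb1 KO there were 6 such members. The share of all genes with several probe sets that were called in opposite directions was not counted. These counts therefore do not show a trait particular to the members.

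Rps24, a small-subunit protein whose gene is mutated in some families with Diamond-Blackfan anaemia, shows the size of this split. Its brightest probe set read 25891, 26375 and 30358 at 0 h and 44944 and 55549 at 24 h in WT, a change of 0.86 with an adjusted p of 0.0128 among probe sets. A dim probe set read 1126, 1054 and 823 at 0 h, 153 and 206 at 24 h, and 150.0 and 78.7 at 48 h. That is a fall by 2.29 ± 0.30 on the log2 scale (adjusted p 3.58e-06). Of the gene's 6 own probe sets 5 were tested, and in WT 4 were called higher and only this dim one lower. The counts were the same in Rb1 KO. For Rps9, another protein of the small subunit's body, the brightest probe set went from 16943, 15705 and 19667 to 23728 and 26680 (0.53, adjusted p 0.0237) and a dim one from 825, 854 and 984 to 203 and 232 (-1.88 ± 0.28, adjusted p 1.79e-05). Of its 3 tested probe sets 1 was called higher and 1 lower in WT. Rpl41 has 2 dim probe sets, which fell by 2.10 and 2.25, and a second bright one that did not pass (0.27, adjusted p 0.470). Rpl12 has a single probe set of its own, which is dim, and its fall has the size and direction of these dim readings. A further 2 probe sets that carry Rpl12 with other symbols were not used for it. The fall of Rpl12 was therefore not set beside any other reading of the gene. Which transcripts the dim probe sets read was not tested.

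**Figure D3:**
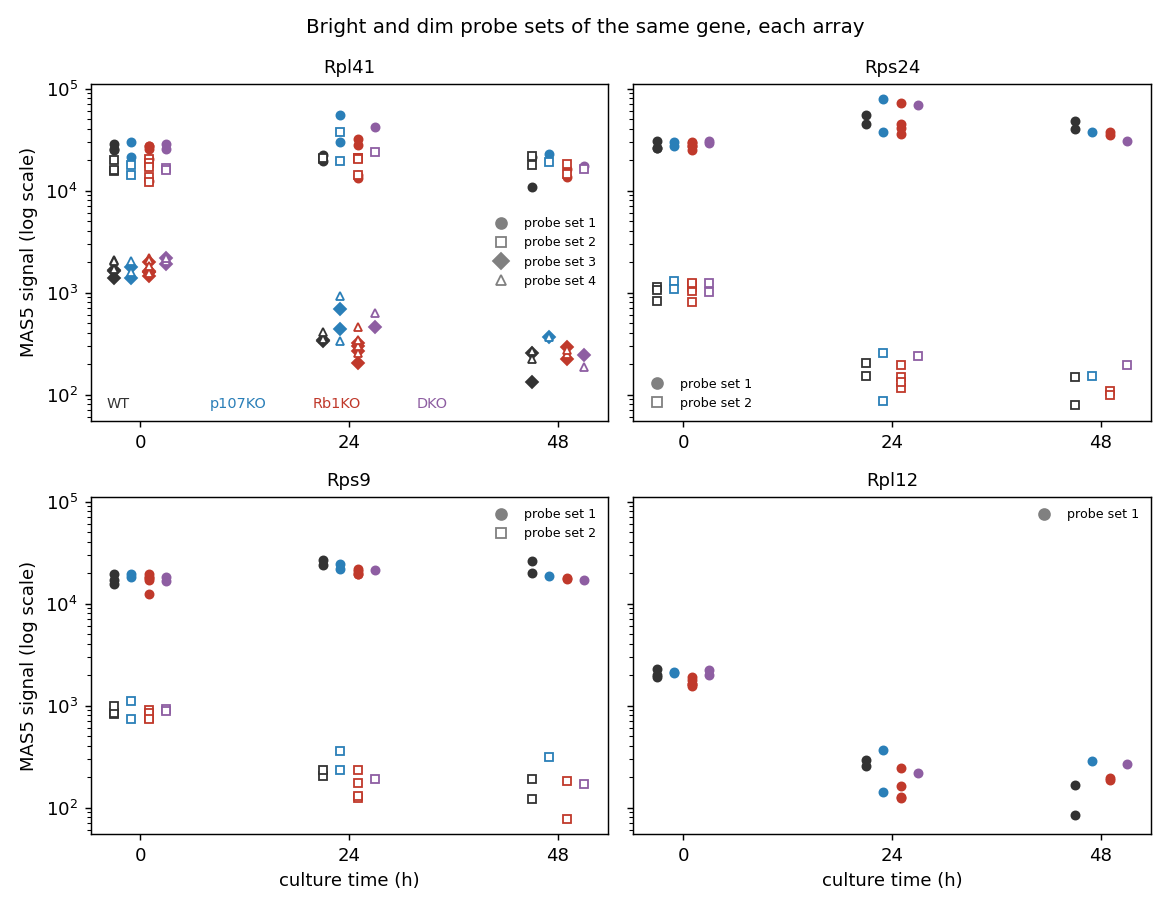
Signal on a log axis of separate probe sets of Rpl41, Rps24, Rps9 and Rpl12 on all 27 arrays, by hours in culture and coloured by genotype. A dim probe set of Rps24 falls from 823 to 1126 at 0 h to 153 and 206 at 24 h in WT while its brightest probe set rises from 25891 to 30358 at 0 h to 44944 and 55549. Not all of the 6 own probe sets of Rps24 are shown: of the 5 tested, 4 were called higher and 1 lower.

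In Rb1 KO, 31 members were higher and 4 lower at 24 h than at 0 h on the deposited scale, and 4 higher and 3 lower with quantile normalization. Over all genes 51% were called on the deposited scale, 20.4% as higher and 30.6% as lower, and 48.7% with quantile normalization. The members' median was 0.52 against -0.09 for all genes. Rps19 read 15494, 16256, 17493, 15743 and 12125 at 0 h and 34624, 25243, 26638 and 23036 at 24 h. The lowest array at 24 h lay above the highest at 0 h, and the change was 0.82 ± 0.14 (1.77-fold, adjusted p 4.79e-05). It kept its call with quantile normalization, at 0.46 with an adjusted p of 0.000292.

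Rps24 in Rb1 KO went from 27448, 29433, 30206, 24699 and 27424 to 72469, 36172, 45379 and 41047, without overlap. Its change was 0.76 ± 0.18 (adjusted p 0.00163), and 0.21 with quantile normalization (adjusted p 0.00652). Rps6 (0.37, adjusted p 0.0139) and Rpl27a, a large-subunit protein (0.98, adjusted p 0.0392), were among the dim members that rose. The 4 that fell were Rpl12 (9.02-fold lower, -3.17 ± 0.21, adjusted p 2.28e-11), Rps25 (2.93-fold lower, -1.55 ± 0.21, adjusted p 2.20e-06), Rps27, a zinc-binding small-subunit protein (-1.20, adjusted p 0.0176), and Rps19bp1 (-0.32, adjusted p 0.0423). Rps25 read 1679, 1462, 880.1, 1036 and 1227 at 0 h and 429, 399.8, 376 and 383 at 24 h. Its arrays at 24 h were all below those at 0 h. Without replicate 1 at 24 h 20 members were called in place of 35, and without all 4 arrays that stood apart 27 were higher and 4 lower, with a median of 0.33 (51% of all genes called).

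In p107 KO 23 members were higher and 2 lower at 24 h, against 11.5% and 16.7% of all genes (28.1% either way), and 3 and 2 with quantile normalization (28.4% of all genes). The count depended on single arrays, among them the replicate 1 at 24 h that stood apart. Rps19 read 16077 and 18398 at 0 h and 39813 and 24849 at 24 h, and the 39813 is that of replicate 1. Its change was 0.87, 1.83-fold, with an adjusted p of 0.00326, and 0.53 with an adjusted p of 0.110 without that array. Without replicate 1 at 24 h 1 member was called, without replicate 1 at 0 h 2 were, and without replicate 2 at 24 h 35 were. Without all 4 arrays that stood apart, which leaves 1 p107 KO array at 24 h, assumed to vary like the other groups, 1 was higher and 2 lower with a median of 0.25 (24.5% of all genes called); the higher one was Rps19 (adjusted p 0.0142), and 1 member was called when arrays that had Y-linked signal were left out. Rpl12 held throughout: it went from 2110.0 and 2104 to 140.5 and 368, 8.14-fold lower, with an adjusted p of 1.05e-07.

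In DKO, where 24 and 48 h have 1 array each and were averaged for the test, 1 member was higher and 2 lower than at 0 h (32.1% of all genes were called, 13.8% as higher and 18.2% as lower). The count was 17 with each array centred on its median, 26 with array weights and 35 in a fit of the DKO groups alone. The share of all genes called was not counted for those settings. Rps19 was the higher one, at 17288 and 17753, then 36295 at 24 h and 18446 at 48 h. Only the 24 h array, which stood apart, lay well above 0 h, and the change of 0.56 (adjusted p 0.0459) did not pass without either 0 h array (adjusted p 0.168 and 0.133). With the 4 arrays that stood apart left out, only 48 h could be set against 0 h: 0 members were higher and 3 lower (35.2% of all genes called), and Rps19 was at 0.07 (adjusted p 0.751). Rpl12 went from 2226 and 1989 to 216 and 264, 7.88-fold lower (adjusted p 1.33e-07). Rpl14, a large-subunit protein, was also lower (-0.78, adjusted p 0.0145) and read 1099.6 and 1047 at 0 h against 809.7 and 459. That call ended when either 0 h array was left out (adjusted p 0.0841 and 0.0576).

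From 24 to 48 h the family moved back on the deposited scale. In WT all 34 bright members had a lower mean at 48 h, between -0.77 and -0.15 on the log2 scale, and the median of all 43 was -0.33 against 0.03 for all genes. With quantile normalization the median was -0.15. Only 3 members passed the test, each lower, where 25.2% of all genes did (12% as lower). They were Rps18 (-0.77, 1.70-fold, adjusted p 0.0202), Rpl12 (-1.01, adjusted p 0.0188) and Rpl14 (-0.66, adjusted p 0.0464). Rps18 read 28060.2 and 32265 at 48 h, among and just above the 0 h arrays. The other cells' markers moved over the same time: in WT 6 of 6 megakaryocyte markers (median 1.85), 5 of 8 macrophage and 3 of 6 neutrophil markers were higher at 48 than at 24 h. Their part in the members' values was not tested. The members' calls were few and depended on single arrays: without WT replicate 2 at 24 h 0 remained, without either array at 48 h 1, and without the 4 arrays that stood apart there were 9 (34.1% of all genes called).

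In Rb1 KO 5 members were lower and 0 higher at 48 than at 24 h, against 7.57% and 13.4% of all genes (21% either way). They were Rpl14 (-0.78, adjusted p 0.00907), Rpl10a, a protein of the stalk that closes on the exit site (-0.50, adjusted p 0.0339), Rps18 (-0.61, adjusted p 0.0385), Rpl8 (-0.49, adjusted p 0.0441) and Rps19bp1 (-0.47, adjusted p 0.0473). Rpl14 read 609, 662, 688 and 598 at 24 h and 335 and 382 at 48 h, with no overlap. The median of the members was -0.39 against 0.02 for all genes, and -0.15 with quantile normalization. Here too 6 of 6 megakaryocyte (median 1.99), 8 of 8 macrophage and 4 of 6 neutrophil markers were higher, and their part was not tested. Without Rb1 KO replicate 1 or 3 at 24 h 1 member was called, without replicate 1 or 2 at 48 h 0 and 2, with a replicate block 2, and without the 4 arrays that stood apart 8 (29.2% of all genes called).

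Between genotypes few differences could be seen. Averaged over the 3 times, 0 of 43 members differed between Rb1 KO and WT (limma), although 18.9% of all genes did (10.3% as higher and 8.57% as lower), and 5 members had an unadjusted p under 0.05. The members' median was -0.13 against -0.07 for all genes, and 4 of the 43 were above 0. Of the cell type markers 5 of 6 for megakaryocytes were lower in Rb1 KO (median -0.53), 1 of 8 each for hepatocytes and macrophages was lower (hepatocyte median -1.27 at 48 h, where 2 passed), and 0 of 5 for erythroid cells passed; their part in the members' values was not tested. The 95% intervals of the 34 bright members ran from -0.55 to 0.39, which is at most 1.46-fold lower or 1.31-fold higher, so a 2-fold difference lay outside the interval of each of the 34. The smallest p among the members was that of Rpl27, a large-subunit protein mutated in some patients with Diamond-Blackfan anaemia (-0.26 ± 0.10, unadjusted p 0.0125, adjusted p 0.0604). It read 20682, 21273 and 23071 in WT and 19455, 21346, 23164, 21394 and 17197 in Rb1 KO at 0 h, which overlap. At 24 h it read 29435 and 35749 against 27625, 26943, 25515 and 22936, and at 48 h 22016 and 26322 against 18774 and 18537. At 24 h every Rb1 KO array lay below every WT array, and likewise at 48 h. Leaving out 1 array gave 1 call without WT replicate 1 at 24 h, WT replicate 1 at 48 h or Rb1 KO replicate 3 at 0 h, and 3 calls without Rb1 KO replicate 1 at 24 h.

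Without the 4 arrays that stood apart, all of them knockouts, 9 members were lower in Rb1 KO than in WT and 0 higher. The Rb1 KO array left out at 24 h had a bright-member mean of 15.62, against 14.98 to 15.20 for the others of its group. The one left out at 0 h, at 14.56, was the lowest of its group. This choice of arrays lowers the Rb1 KO mean at 24 h, and its part in the 9 calls was not tested. In that fit 26% of all genes were called, 12.8% as lower, so 9 of 43 is not far above the background. In the same fit 5 of 6 megakaryocyte markers and 5 of 6 neutrophil markers were lower, with medians of -0.58 and -0.35. So were 2 of 8 hepatocyte, 2 of 8 macrophage and 1 of 5 progenitor markers. Of the erythroid, endothelial and stroma markers 0 were called. The part of these cell types in the members' values was not tested. The 9 were Rpsa, Rpl10a, Rpl27, Rpl38, Rpl35, Rpl22, Rps9, Rpl6 and Rpl8, at -0.32, -0.25, -0.25, -0.24, -0.23, -0.21, -0.21, -0.19 and -0.19. Rpsa had an adjusted p of 0.00772 and Rpl10a, 1.19-fold lower, of 0.00926. Rpl10a read 25869.5 and 30207 in WT and 20215 and 20775 in Rb1 KO at 48 h, which do not overlap. With all 27 arrays, quantile normalization called Rpl10a and Rpsa (-0.16 and -0.22; 19.1% of all genes called), and centring on the array median called these and Rpl27 (12.3% of all genes). The largest of these differences, that of Rpsa, is smaller than the 0.87 by which the same gene was higher at 24 h in WT culture on the deposited scale.

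**Figure D4:**
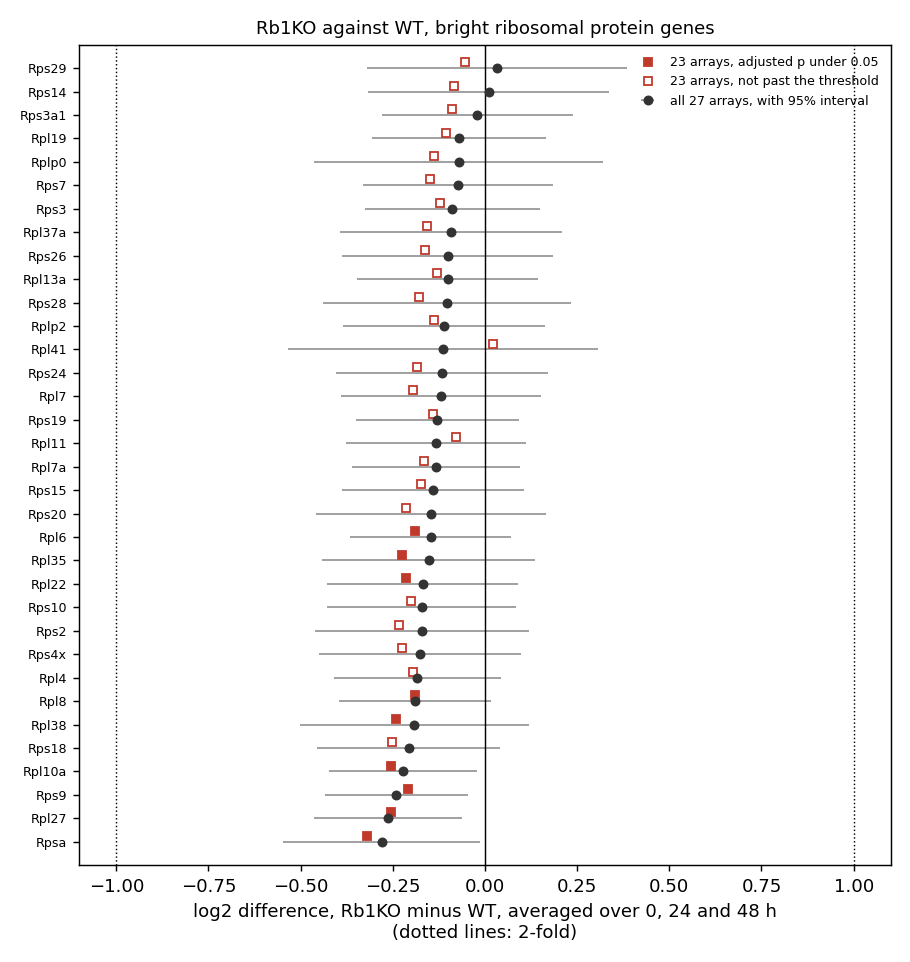
Difference between Rb1 KO and WT, averaged over the 3 times, for the 34 bright ribosomal protein genes in log2 units. Black points with 95% confidence intervals use all 27 arrays and are filled whatever the call. Red squares use the 23 arrays without those that stood apart, filled where the adjusted p is under 0.05 and open elsewhere. Dotted lines mark 2-fold. With all arrays no gene is called and every interval lies between -0.55 and 0.39.

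At single times the result was alike. At 0 h 0 members differed between Rb1 KO and WT by limma (0 with an unadjusted p under 0.05; 0.614% of all genes were called), with bright-member intervals from -0.89 to 0.60. At 24 h 0 members passed (2 with an unadjusted p under 0.05; 7.63% of all genes called) and the intervals ran from -0.88 to 0.68. Without the 4 arrays that stood apart, Rpl38, a small protein of the large subunit known for its role in skeletal patterning, was lower at 24 h (-0.48, adjusted p 0.0132; 12.2% of all genes called). At 48 h 0 passed (2 unadjusted; 10.4% of all genes called); 32 of the 34 intervals lay within 2-fold, and without those 4 arrays Rpsa (-0.57, adjusted p 0.0182) and Rpl10a (-0.45, adjusted p 0.0244) were lower, where 15.7% of all genes were called. Leaving out Rb1 KO replicate 2 at 24 h, or replicate 1 at 48 h, gave 1 call at that time. Rpsa read 44453 and 48788 in WT and 28499 and 34340.3 in Rb1 KO at 48 h, without overlap. The change over time did not differ between Rb1 KO and WT for any member by limma's interaction term, from 0 to 24 h (0.824% of all genes) or from 24 to 48 h (0.0458%); 1 member had an unadjusted p under 0.05 in each. Without the 4 arrays that stood apart 0 members passed for the change from 0 to 24 h (1.54% of all genes), 20 had an unadjusted p under 0.05, and the members' median was -0.38 against -0.03 for all genes. That fit leaves out the Rb1 KO arrays with the highest bright-member mean at 24 h and the lowest at 0 h, which makes the Rb1 KO change smaller.

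Loss of p107 gave 0 members called against WT by limma (2 with an unadjusted p under 0.05; 0.0183% of all genes called), with bright-member intervals from -0.60 to 1.00 and a median of -0.03. DKO against WT at 0 h also gave 0 (0 unadjusted; 0.183% of all genes), with intervals from -0.71 to 0.82 and a median of 0.12. DKO against Rb1 KO over the 3 times gave 0 (0.999% of all genes; 6 with an unadjusted p under 0.05), with intervals from -0.63 to 1.05. Its largest difference was that of Rpl37, a zinc-binding large-subunit protein read at a dim probe set, at 0.82 with an adjusted p of 0.118. DKO against p107 KO gave 0 as well (0 unadjusted; 7% of all genes), with intervals from -0.66 to 0.64. These comparisons rest on 4 DKO and 5 p107 KO arrays, 1 of each standing apart. At 24 h the p107 KO array that stood apart had a bright-member mean of 15.90, against 14.98 for the other, so leaving it out lowers the p107 KO mean. Without the 4 arrays that stood apart, p107 KO against WT gave 0 members (0.0641% of all genes; 18 with an unadjusted p under 0.05; median -0.19). DKO, then compared over 0 and 48 h alone, gave 0 against Rb1 KO (0.0458% of all genes; 4 unadjusted) and 0 against p107 KO (5.86%; 0 unadjusted).

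The genes that build ribosomes were counted in the same way. In WT from 0 to 24 h, 4 of 41 tested genes for small-subunit assembly were higher and 8 lower, and 4 of 39 for large-subunit assembly were higher and 9 lower, with medians of -0.26 and -0.23 beside 0.71 for the ribosomal proteins. Over all genes 15% were higher and 21.9% lower with a median of -0.08, so the shares of assembly genes called are near the background. Pdcd11, a scaffold of the early small-subunit precursor, was lower by 1.12 ± 0.16 (adjusted p 9.88e-06), and Utp20, of the same precursor, by 1.07. Sbds, which releases a late factor from the large subunit, was higher (0.87 ± 0.15, adjusted p 6.34e-05). Of 12 genes for RNA polymerase I and its factors 4 were lower and 0 higher, among them Taf1d (-2.08 ± 0.33, adjusted p 3.40e-05) and Polr1b (-1.37 ± 0.31, adjusted p 0.00113). Of 13 other nucleolar genes 3 were lower and 0 higher. With quantile normalization 3 small-subunit assembly genes were higher and 9 lower, 3 large-subunit assembly genes were higher and 5 lower, and 2 polymerase I genes and 5 nucleolar genes were lower, with 0 higher in either.

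In Rb1 KO over the same 24 h 26 of 41 small-subunit assembly genes were lower and 0 higher, 20 of 39 for the large subunit were lower and 3 higher, and 9 of 13 nucleolar genes were lower and 0 higher, where 30.6% of all genes were lower and 20.4% higher. The lower genes were 24, 21 and 9 without the 4 arrays that stood apart. Gnl3, a nucleolar GTP-binding protein, was lower by 1.49 (adjusted p 3.71e-08). Averaged over time, Rb1 KO cells had 9 small-subunit assembly genes lower and 0 higher than WT (11 and 0 without the 4 arrays that stood apart), where 8.57% of all genes were lower. Among the 9 were Wdr36 (-0.53 ± 0.11, adjusted p 0.00164) and Utp20 (-0.54 ± 0.11, adjusted p 0.00174). Of the 13 nucleolar genes 6 were lower and 0 higher (median -0.31), and likewise 6 and 0 without the 4 arrays. Npm1, the abundant nucleolar chaperone, was lower by 0.41 ± 0.11 (adjusted p 0.0135). Of the large-subunit assembly genes 7 were lower and 1 higher, and 9 and 1 without those 4 arrays; Rrs1, which brings the 5S RNA particle in, was lower by 0.44 ± 0.11 (adjusted p 0.00686). The difference between these lists and the ribosomal proteins was not tested.

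Translation factors whose messages carry TOP tracts moved as the ribosomal proteins did in WT on the deposited scale (15% of all genes higher): 10 of 20 were higher and 2 lower, with a median of 0.47, and 2 higher and 3 lower with quantile normalization. Eif3h, a subunit of the initiation factor that holds the small subunit, was higher by 0.62 ± 0.13 (adjusted p 0.000775). Eef1a1, which brings charged transfer RNA to the ribosome, was higher by 0.79 (adjusted p 0.0137), and Pabpc1, the poly(A)-binding protein, by 1.00. Of 12 genes of the mTORC1 pathway 1 was higher and 2 lower. The higher one was Eif4ebp1, a repressor of cap-dependent translation that mTORC1 inactivates, at 2.10 ± 0.22 (4.30-fold, adjusted p 8.79e-08). Myc, a driver of ribosome production, was lower (-0.71, adjusted p 0.0194).

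**Figure D5:**
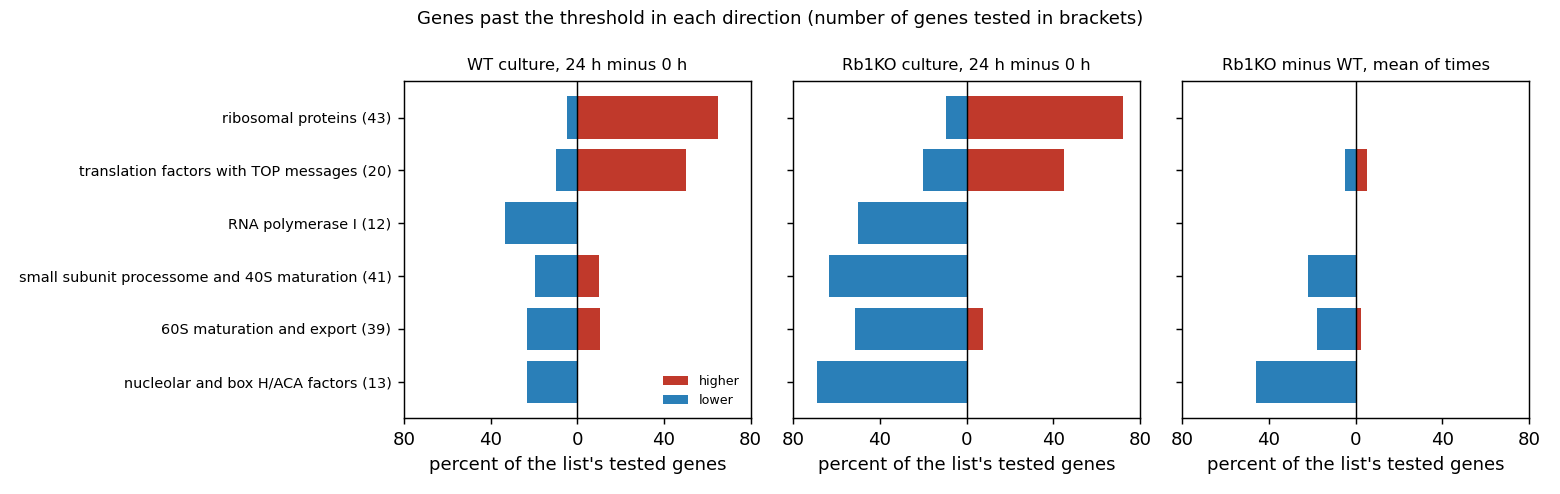
Percent of tested genes called higher or lower (adjusted p under 0.05, deposited scale) among ribosomal proteins (43 tested) and lists of TOP translation factors (20), RNA polymerase I (12), small-subunit assembly (41), large-subunit assembly (39) and other nucleolar genes (13). In WT from 0 to 24 h 28 of 43 ribosomal proteins are higher, a rise that quantile normalization reduces to 1; 8 of 41 small-subunit and 9 of 39 large-subunit assembly genes are lower, where 21.9% of all genes are.

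Members tied to disease or sharing a start sequence were set beside the rest. Of 14 tested genes linked to Diamond-Blackfan anaemia, 9 were higher and 1 lower in WT at 24 h (median 0.71) and 11 higher and 2 lower in Rb1 KO on the deposited scale, where 15% and 20.4% of all genes were higher, but with quantile normalization 0 and 0 in WT (median 0.01) and 2 and 2 in Rb1 KO. Between Rb1 KO and WT 0 were called, and 3 were lower without the 4 arrays that stood apart. Tsr2, the chaperone of Rps26, was lower in WT (-0.57, adjusted p 0.0317). Of 6 ribosomal proteins known to bind MDM2, 4 were higher in WT and 5 in Rb1 KO on the deposited scale, with 0 lower, and 0 in either with quantile normalization (medians -0.02 and 0.10). The 5 bright members with a TOP tract at the listed start, Rpl35, Rpl38, Rplp2, Rps10 and Rps18, had a median WT change at 24 h of 0.78 on the deposited scale, and the 24 bright members with a window and no tract there 0.73. Of those 24, Rpl13a, Rpl19, Rpl7a, Rps2, Rps24, Rps26 and Rps9 have a tract within 5 bases of the listed start, so the split is not one of genes with and without a TOP tract. In Rb1 KO the medians were 0.54 and 0.55.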

How the data were processed

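The deposited values are MAS5 signal intensities, which the authors made in GCOS 1.4 according to the submitters' processing notes, with a signal for each of 45037 probe sets on 27 arrays; MAS5 subtracts mismatch probes, which can set weak signals near the floor. Groups follow the labels. Probe sets were named from the platform annotation, updated by Entrez identifier (34945 with 1 symbol, 932 with several, 9160 unnamed), and the brightest probe set stood for each gene. The deposited signals were put on the scale log2(signal + 32), so changes of weak genes are understated. Genes in the lowest 40% by mean over all arrays were not tested. All 27 arrays were fitted with 1 mean per group (limma lmFit and eBayes with trend, R), p-values were adjusted by Benjamini-Hochberg over 10916 genes, and an adjusted p under 0.05 was a call. The number of arrays limits the precision. The fit was tested on simulated data. The members and the gene lists were chosen with earlier results of these data known. Every member may be named; values per array are given for Rps19 and Rpl11, up to 6 members with the smallest adjusted p in a comparison, the brightest and dimmest, and those whose probe sets or direction disagree, with up to 4 genes from each other list; others were named after their values were seen. Alternatives covered the scaling, filter, pseudocount, probe set choice, array weights, a replicate block, and fits without single arrays or sets of arrays. Of 76 same-numbered pairs of arrays from different groups 19 had deviations correlated above 0.1 (median 0.02, highest 0.42). Of 175 other pairs 22 did (median -0.02, highest 0.30). Asking that every pair lie above 0.1 cannot decide if numbers pair the arrays, since a shared batch need not reach it in every pair. The main fit did not pair arrays by number. Sequences are from RefSeq, GRCm38.p6; no protein sequence was used here. Tools were R 4.3.3, limma 3.58.1, Python 3.11.15, pandas 2.3.3 and matplotlib 3.10.9.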

Additional observations from a re-analysis of the deposited data

Results flagged for a closer look

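In Rb1 KO at 0 h, replicate values of Rpl13a, a large-subunit protein, held a sample far from the others: 1 array read 29385.5, while the other 4 lay between 23140.3 and 24622, a gap of 0.763 of the whole range. The 34 sets of values checked in this way were those of 16 members and of the bright members' mean, each in 2 groups. This was the only one with such a gap, and chance alone gives such a gap in about 1 in 20 sets.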

How the results depend on the processing

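The number of members called (adjusted p under 0.05) depended on the scaling, on single arrays and on the fit. For many of these fits the share of all genes called was not counted, so those member counts have no background beside them. For 24 h minus 0 h, quantile normalization left 3 calls of 30 in WT, 7 of 35 in Rb1 KO and 5 of 25 in p107 KO. In p107 KO there were 14 calls with no filter, 16 with the mean over probe sets, 2 in a fit of those groups alone, 3 without the 4 arrays that stood apart and 1 without arrays with Y-linked signal. For DKO in culture, 3 calls became 17 with array median centring, 6 with the mean over probe sets, 26 with array weights and 35 in a fit of those groups alone. For Rb1 KO at 48 against 24 h, 5 became 1 with no filter or in a fit of those groups alone, 3 with median centring, 2 with the replicate number as a block and 8 without the 4 arrays; for WT 3 became 9 without them. For Rb1 KO minus WT over the 3 times, 0 became 1 with 60% of genes left out, with the mean over probe sets or in a fit of those groups alone, 2 with quantile normalization or array weights, 3 with median centring and 9 without the 4 arrays. At 24 h it became 1 without the 4 arrays or without arrays with Y-linked signal, and at 48 h 2 without the 4. DKO minus Rb1 KO went from 0 to 2 with array weights. The replicate block changed no other count by over 1.5 times. Leaving out 1 array in turn gave 5 to 30 calls (WT, 24 h), 20 to 35 (Rb1 KO, 24 h), 1 to 35 (p107 KO, 24 h), 1 to 2 (DKO culture), 0 to 2 (WT, 48 against 24 h), 0 to 6 (Rb1 KO, 48 against 24 h), 0 to 3 (Rb1 KO minus WT) and 0 to 1 at 24 or 48 h alone. Signs turned with the mean over probe sets for Rps18 in WT at 24 h (-0.19), Eif3h in DKO culture (-0.077) and in Rb1 KO at 24 h (-0.060) and Tfrc in DKO culture (-0.083), without the 4 arrays (48 against 0 h) for Tfrc (-0.043) and Rpl22l1 (-0.096) in DKO, and with quantile normalization for Rpl4 in p107 KO (-0.0027) and Slc4a1 in WT at 24 h (-0.051). The causes were not tested. Signals near background limit the dim members.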
